A study of Homo sapiens with 18 samples.

Results

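The genes described here are 10 members of cadherin junctions and of the canonical Wnt pathway, in Burkitt lymphoma cells that received a short hairpin RNA (shRNA) against the transcription factor FOXO3. They are the catenin genes CTNND1, CTNNB1 and CTNNA1, the co-activator genes BCL9 and BCL9L, the DNA-binding partner LEF1, and APC, AXIN1, GSK3A and GSK3B of the destruction complex. They were found by symbol, and all 10 of 10 were listed in each of the 3 deposited tables, which hold 17561 genes in all. CTNND1 and BCL9L were chosen by their deposited fold changes, which differ by line, so these values are a description and no test of them is given. The other 8 were taken as neighbours of that pair in the pathway.

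The cells compared were BL-41, Namalwa and Jiyoye cells with FOXO3 shRNA, each set against cells of the same line with a scrambled shRNA. All 3 are established human Burkitt lymphoma cell lines, a B cell cancer driven by MYC, and Namalwa and Jiyoye carry Epstein-Barr virus. Both hairpins came from a lentiviral vector with a U6 promoter and the marker TagRFP, and infected cells were sorted on day 4, so controls were infected and sorted too. Each of the 6 groups held 3 libraries of oligo-dT selected RNA, 18 in all, called triplicates. Nothing says that they came from separate cultures, so a p-value here reflects the spread among these libraries alone, possibly a technical one. The labels do not say how many hairpins against FOXO3 were used.

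Canonical Wnt signalling turns on the stability of beta-catenin, the product of CTNNB1. Without a Wnt ligand, the scaffolds APC and AXIN1 hold beta-catenin for phosphorylation by the kinases GSK3A and GSK3B, and it is degraded. When a ligand binds its receptors, beta-catenin enters the nucleus, binds LEF1 or a related TCF factor on DNA, and recruits BCL9 or BCL9L. The same protein also sits at cell junctions, where p120 catenin (CTNND1) and beta-catenin bind the tails of cadherins and alpha-catenin (CTNNA1) ties the complex to actin. LEF1 is best known in the B lineage from early progenitors.

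The deposited tables give 1 normalized value per arm and no value per library, so no spread between libraries can be shown beside a level. The error of a fold change is given as a standard error (SE), worked back from its deposited p, and intervals are 95% intervals from this SE. The mean of the arm values behaved as the mean normalized read count of the 6 libraries of a line, with 6 single-read steps, and the size factors read from these steps spanned 0.950 to 1.10 for BL-41, 0.985 to 1.02 for Namalwa and 0.963 to 1.08 for Jiyoye. That corresponds to relative depths of 16541329 to 19921339 reads over all libraries. FOXO3 itself had 545, 398 and 384 with FOXO3 shRNA in BL-41, Namalwa and Jiyoye, against 945, 851 and 471 with scrambled shRNA, in the authors' deposited table. Its fall passed the authors' DESeq2 test in BL-41 and Namalwa and did not in Jiyoye (adjusted p = 3.15e-07, 2.49e-09 and 0.187). All 7 B cell markers searched were listed in every line with a mean of at least 100 in the authors' deposited table. Of the 5 epithelial markers, EPCAM had at most 1.91 in any arm of the authors' deposited table, whereas in Jiyoye KRT8 had 1823 with FOXO3 shRNA and 2978 with scrambled shRNA, and KRT18 had 156 and 194. Of 6 myeloid markers, 4 were called higher in BL-41, 0 in Namalwa (0 at an unadjusted p under 0.05 by DESeq2) and 1 in Jiyoye. Over all genes 14.5%, 2.6% and 8.69% were called higher in these lines. In BL-41 only 1 of the 6 markers, FCER1G, had a mean of at least 100, and CD14 had 5.25 with scrambled shRNA. The summed value of the 6 markers in the authors' deposited table was 539.9 with FOXO3 shRNA and 265.5 with scrambled shRNA in BL-41, 467 and 400.5 in Namalwa, and 323 and 263 in Jiyoye. In BL-41, LYZ (1.5), CD14 (2.34), FCER1G (0.90) and CD68 (0.92) rose and the B cell genes CD79B (-0.84), CD22 (-0.48) and BLK (-0.52) fell, as log2 fold changes of the authors' deposited table. In Jiyoye CD14 (1.33), CD79B (0.53) and CD79A (0.36) rose and KRT8 (-0.71), PDGFRB (-0.91) and PECAM1 (-0.43) fell, and PECAM1 (-0.55) fell in BL-41 too, in the authors' deposited table. No T cell marker was called, and all these calls had an adjusted p from 9.92e-11 to 0.047 (DESeq2). The part of these markers in the values below was not tested, and in bulk RNA fewer cells of a type and less RNA per cell cannot be told apart.

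CTNND1 codes for p120 catenin, which binds the juxtamembrane part of cadherins and keeps them at the cell surface. Its value in the authors' deposited table was 1384 with FOXO3 shRNA and 402 with scrambled shRNA in BL-41. In Namalwa the authors' deposited table gave 604 with FOXO3 shRNA and 180.1 with scrambled shRNA. In Jiyoye the authors' deposited table gave 2194 with FOXO3 shRNA and 2957 with scrambled shRNA. The value with FOXO3 shRNA was thus the higher one in BL-41 and Namalwa and the lower one in Jiyoye. As ratios these are 3.44-fold in BL-41 (95% interval 2.70 to 4.39), 3.35-fold in Namalwa (2.55 to 4.40) and 0.742-fold in Jiyoye (0.629 to 0.876). On the log2 scale the authors' deposited table gave 1.78, 1.75 and -0.43 for these lines, with recovered SE of 0.18, 0.20 and 0.12.

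The fold change of CTNND1 was nearly equal in BL-41 and Namalwa and apart from both in Jiyoye. BL-41 minus Namalwa was 0.04 on the log2 scale (SE 0.27), BL-41 minus Jiyoye was 2.22 (SE 0.22) and Namalwa minus Jiyoye was 2.18 (SE 0.23). By size, the Namalwa minus Jiyoye difference was the 10th of 14933 genes listed in both lines, and the BL-41 minus Jiyoye difference the 47th of 15419, which describes the choice of this gene and tests nothing. Among genes with a mean of at least 100, CTNND1 had the 6th highest fold change of 9671 in Namalwa and the 23rd of 9884 in BL-41. In Jiyoye it had the 1264th lowest of 10122.

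BCL9L, a relative of BCL9 that links beta-catenin to the Pygopus proteins, had a higher value with FOXO3 shRNA in every line, by different amounts. In BL-41 the authors' deposited table gave 1363 with FOXO3 shRNA and 303 with scrambled shRNA. In Namalwa the authors' deposited table gave 703 with FOXO3 shRNA and 502 with scrambled shRNA, and in Jiyoye 1994 and 909. The ratio of the arms was highest in BL-41 and lowest in Namalwa. As ratios these are 4.50-fold in BL-41 (95% interval 3.62 to 5.60), 1.40-fold in Namalwa (1.19 to 1.65) and 2.19-fold in Jiyoye (1.86 to 2.59). The log2 fold changes in the authors' deposited table were 2.17, 0.49 and 1.13, with recovered SE of 0.16, 0.12 and 0.12.

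The order of the BCL9L fold changes, BL-41 above Jiyoye above Namalwa, was not that of CTNND1, whose Namalwa value lay with BL-41. BL-41 minus Namalwa was 1.69 on the log2 scale (SE 0.20), BL-41 minus Jiyoye was 1.04 (SE 0.20), and Namalwa minus Jiyoye was -0.65 (SE 0.17). Only 8 of the 9884 genes with a mean of at least 100 had a higher fold change than BCL9L in BL-41, where its rank was 9. It ranked 51 of 10122 in Jiyoye and 132 of 9671 in Namalwa. As for CTNND1, these differences and ranks describe the choice of the gene and test nothing.

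**Figure D1:**
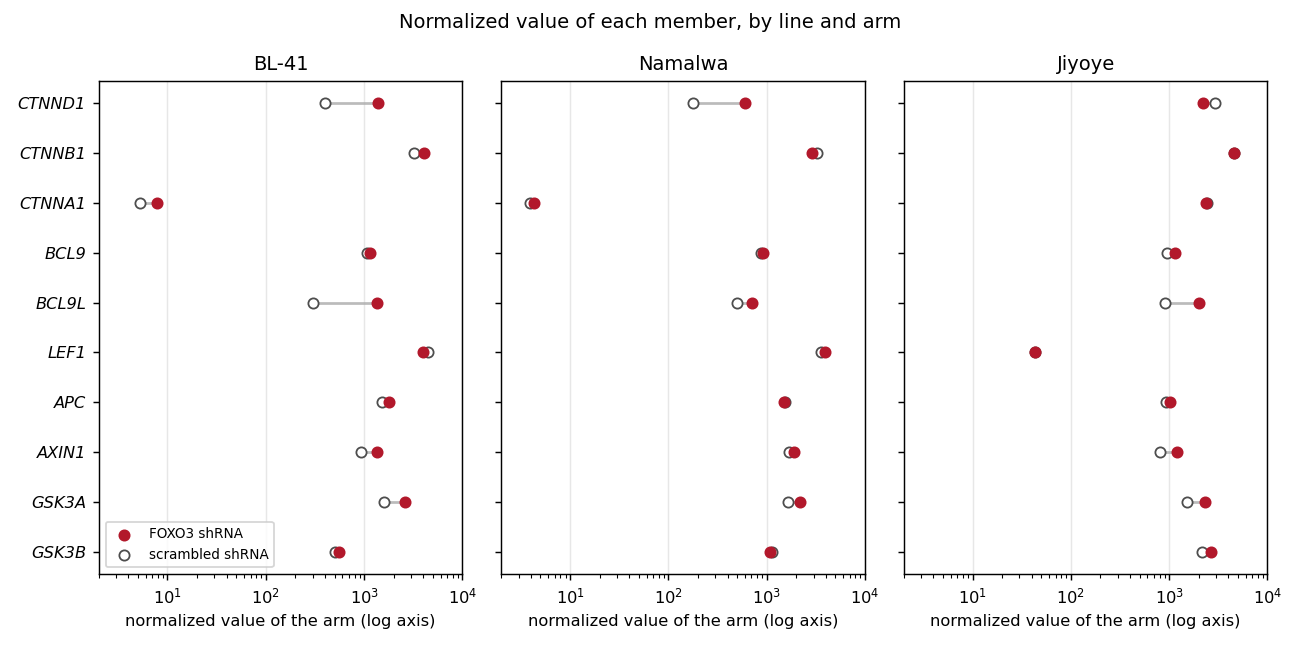
Normalized value of each of the 10 genes in the authors' deposited tables (log axis) with FOXO3 shRNA (filled) and scrambled shRNA (open), 1 panel per line, each point 1 value per arm with no spread between libraries. CTNND1 stands at 1384 against 402 in BL-41 and at 2194 against 2957 in Jiyoye, CTNNA1 is under 10 in BL-41 and Namalwa, and LEF1 is near 44 in Jiyoye.

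Of the remaining 8 genes, 3 rose in BL-41 and in Jiyoye and 1 in Namalwa at an adjusted p under 0.05 by the authors' DESeq2 test, and 0 fell in any line (0 at an unadjusted p under 0.05 in each line). Over all genes of the tables, 28.7%, 6.41% and 17.4% were called for BL-41, Namalwa and Jiyoye, or 14.5%, 2.6% and 8.69% counting rises only. Counting falls only, the shares over all genes were 14.2%, 3.81% and 8.7%. Since all values come from the contrast that chose the pair, nothing is read from these counts. The median log2 fold change of the 8 genes was 0.29, 0.09 and 0.19 for these lines, against 0.02, -0.00 and 0.01 over all genes tested. Of the 8, 7, 5 and 6 had a fold change above 0.

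GSK3A, which codes for the alpha form of glycogen synthase kinase 3, was the member of the 8 that rose in every line. The authors' deposited table gave 2627, 2171 and 2293 with FOXO3 shRNA in BL-41, Namalwa and Jiyoye, against 1581, 1668 and 1530.2 with scrambled shRNA. Every value with FOXO3 shRNA lay above every value with scrambled shRNA, though levels of different tables were normalized separately. The log2 fold changes in the authors' deposited table were 0.73, 0.38 and 0.58, with recovered SE of 0.12 in each line (adjusted p = 1.98e-08, 0.024 and 6.31e-05 by DESeq2). As a ratio GSK3A was 1.66-fold in BL-41 (1.42 to 1.95), 1.3-fold in Namalwa (1.11 to 1.52) and 1.5-fold in Jiyoye (1.27 to 1.77). A difference between lines was not shown. BL-41 minus Namalwa was 0.35 (interval 0.03 to 0.68) with an adjusted p of 0.206 by the z test over all genes. In Namalwa the call of GSK3A ended at a threshold of 0.01.

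Its relative GSK3B, the beta form of the kinase, was called higher in Jiyoye alone among the lines. The authors' deposited table gave 557, 1083 and 2693 with FOXO3 shRNA in BL-41, Namalwa and Jiyoye, against 502, 1136 and 2149 with scrambled shRNA. The log2 fold changes in the authors' deposited table were 0.15, -0.07 and 0.33 (adjusted p = 0.519, 0.865 and 0.023 by DESeq2), and the call in Jiyoye ends at a threshold of 0.01. Whether Jiyoye differed from the other lines was not settled by the test. Namalwa minus Jiyoye was -0.39 (interval -0.69 to -0.10, adjusted p = 0.16 by the z test) and BL-41 minus Jiyoye was -0.18 (-0.53 to 0.18, adjusted p = 0.697).

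AXIN1, the limiting scaffold of the destruction complex in many cells, rose in BL-41 and Jiyoye by nearly the same amount. The authors' deposited table gave 1358, 1918 and 1195 with FOXO3 shRNA in BL-41, Namalwa and Jiyoye, against 920.5, 1695 and 815 with scrambled shRNA. Its log2 fold changes in the authors' deposited table were 0.56, 0.18 and 0.55, with recovered SE of 0.12, 0.10 and 0.12 (adjusted p = 7.26e-05, 0.384 and 0.000161 by DESeq2), and its calls end under Bonferroni adjustment (0.0961 in BL-41 and 0.128 in Jiyoye). BL-41 minus Jiyoye was 0.01, with an interval from -0.33 to 0.35. The Namalwa fold change was the lowest of the 3, yet BL-41 minus Namalwa (0.38, adjusted p = 0.137) and Namalwa minus Jiyoye (-0.37, adjusted p = 0.235) did not pass the z test.

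APC, the large scaffold that binds beta-catenin beside AXIN1, was not called in any line. The authors' deposited table gave 1772, 1508 and 1020.1 with FOXO3 shRNA in BL-41, Namalwa and Jiyoye, against 1507, 1544 and 934 with scrambled shRNA. Its intervals on the log2 scale were -0.03 to 0.50 for BL-41, -0.27 to 0.21 for Namalwa and -0.14 to 0.40 for Jiyoye. The interval of BL-41 lay almost wholly above 0, and those of the other lines lay on both sides of it.

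CTNNB1, the gene of beta-catenin, rose slightly in BL-41. The authors' deposited table gave 4045, 2901 and 4520.2 with FOXO3 shRNA in BL-41, Namalwa and Jiyoye, against 3189, 3214 and 4613 with scrambled shRNA. FOXO3 shRNA had the higher value in BL-41 and the lower one in the other two lines. The log2 fold changes in the authors' deposited table were 0.34 (SE 0.13), -0.15 (SE 0.09) and -0.03 (SE 0.12), with adjusted p of 0.0381, 0.388 and 0.917 by DESeq2, so the call in BL-41 ends at a threshold of 0.01. The BL-41 and Namalwa fold changes differed by 0.49 (SE 0.16, interval 0.18 to 0.80), which passed the z test over all genes (adjusted p = 0.034, from 0.0257 to 0.041 under the alternatives tried). It was 1 of the 8 genes to pass in that pair, where 7.01% of all genes did. For BL-41 minus Jiyoye and Namalwa minus Jiyoye, where 6.25% and 2.75% of all genes passed, 0 of the 8 did by the z test, with unadjusted p under 0.05 for CTNNB1 in the first (0.0372) and for AXIN1 (0.0193) and GSK3B (0.00951) in the second.

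BCL9, the relative of BCL9L, was not called in any line. The authors' deposited table gave 1151, 916 and 1143 with FOXO3 shRNA in BL-41, Namalwa and Jiyoye, against 1066, 878 and 961 with scrambled shRNA. The log2 fold changes in the authors' deposited table were 0.11, 0.06 and 0.25, with intervals from -0.16 to 0.38, from -0.16 to 0.28 and from -0.06 to 0.56.

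**Figure D2:**
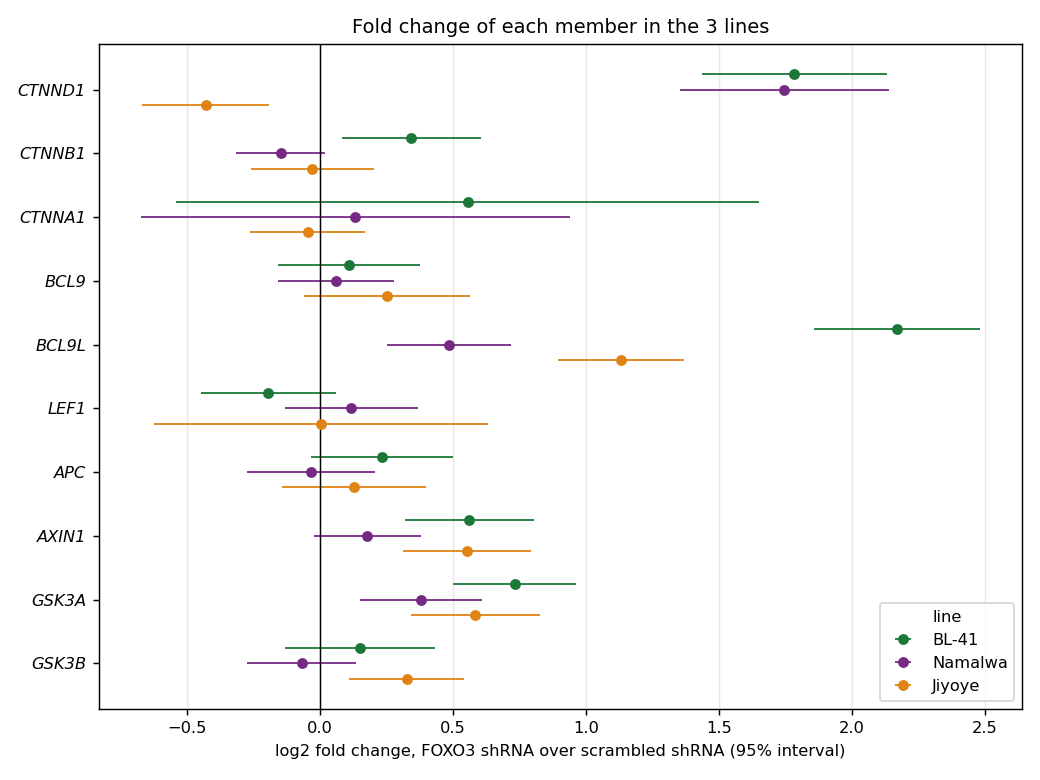
Log2 fold change of each gene, FOXO3 shRNA over scrambled shRNA, in BL-41, Namalwa and Jiyoye, as the authors deposited it, with 95% intervals from the recovered SE. CTNND1 lies at 1.78 and 1.75 in BL-41 and Namalwa and at -0.43 in Jiyoye, BCL9L lies at 2.17, 0.49 and 1.13, and GSK3A lies above 0 in each line.

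CTNNA1 and LEF1 were not called in any line, and their levels differed widely between lines. CTNNA1, the gene of alpha-E-catenin, had 2352 with FOXO3 shRNA and 2429.7 with scrambled shRNA in Jiyoye, in the authors' deposited table. In BL-41 the authors' deposited table gave 7.77 with FOXO3 shRNA and 5.29 with scrambled shRNA, and in Namalwa 4.34 and 3.96. These low values rest on about 39 normalized reads over the 6 BL-41 libraries and 24.9 over the 6 Namalwa libraries, and the authors' moderation draws such arm values together. CTNNA1 was not called in any line (adjusted p = 0.547, 0.921 and 0.841 in BL-41, Namalwa and Jiyoye by DESeq2), and its log2 interval in BL-41 was as wide as -0.54 to 1.65.

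LEF1, a DNA-binding partner of beta-catenin, was low in Jiyoye, where CTNNA1 was high. The authors' deposited table gave 3941 and 3892 with FOXO3 shRNA in BL-41 and Namalwa, against 4510.3 and 3586 with scrambled shRNA. In Jiyoye the authors' deposited table gave 43.5 with either hairpin, about 261 normalized reads over the 6 libraries. The LEF1 log2 fold changes were -0.19, 0.12 and 0.00 in the authors' deposited table, with intervals from -0.45 to 0.06, from -0.13 to 0.37 and from -0.63 to 0.63, and none was called by DESeq2.

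The windows around the annotated starts of these genes (250 bases before to 50 after, RefSeq, GRCh38.p14) are shown for CTNNA1 and LEF1, whose levels separate the lines most, and for GSK3A, which rose in all 3 lines. The table matched 8 of the 10 genes with 12 windows, and CTNND1 and BCL9L are not in it. Both strands were searched for the FOXO word GTAAACA and for the TCF/LEF words CTTTGAT and CTTTGAA, which do not overlap the FOXO word. A match is in capitals.
CTNNA1, chr5:138753175-138753474, plus strand: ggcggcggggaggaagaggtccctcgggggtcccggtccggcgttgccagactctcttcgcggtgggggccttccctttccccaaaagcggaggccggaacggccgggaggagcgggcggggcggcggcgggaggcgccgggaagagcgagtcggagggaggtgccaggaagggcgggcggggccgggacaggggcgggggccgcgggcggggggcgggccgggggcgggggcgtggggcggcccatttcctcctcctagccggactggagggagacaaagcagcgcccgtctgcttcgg
CTNNA1, inner start, chr5:138874980-138875279, plus strand: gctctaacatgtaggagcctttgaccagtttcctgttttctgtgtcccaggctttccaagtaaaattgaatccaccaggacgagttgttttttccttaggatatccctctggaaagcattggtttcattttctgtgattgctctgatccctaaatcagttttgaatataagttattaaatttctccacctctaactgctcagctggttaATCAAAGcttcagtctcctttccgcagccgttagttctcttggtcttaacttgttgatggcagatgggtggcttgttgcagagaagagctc
LEF1, inner start, chr4:108166252-108166551, minus strand: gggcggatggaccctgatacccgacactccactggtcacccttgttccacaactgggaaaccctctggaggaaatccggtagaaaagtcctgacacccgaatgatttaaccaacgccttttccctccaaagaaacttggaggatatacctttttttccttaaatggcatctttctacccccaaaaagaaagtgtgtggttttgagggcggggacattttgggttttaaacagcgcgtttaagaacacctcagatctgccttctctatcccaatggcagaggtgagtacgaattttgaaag
GSK3A, chr19:42242553-42242852, minus strand: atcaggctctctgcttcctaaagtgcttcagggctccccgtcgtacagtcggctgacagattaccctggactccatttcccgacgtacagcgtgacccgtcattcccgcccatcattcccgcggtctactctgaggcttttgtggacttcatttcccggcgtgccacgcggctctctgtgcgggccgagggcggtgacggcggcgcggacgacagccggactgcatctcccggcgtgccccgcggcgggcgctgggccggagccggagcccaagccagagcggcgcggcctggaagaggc

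The single match among these windows was CTTTGAT on the reverse strand (read here as ATCAAAG), which begins 41 bases before the inner start of CTNNA1 and also falls in the overlapping window of a further start. Of 35116 windows of all genes, 2.62% held CTTTGAT, 4.43% held CTTTGAA and 3.42% held GTAAACA. None of the 12 windows of these genes held GTAAACA or CTTTGAA. The outer CTNNA1 window had 77.7% G and C and 37 CG pairs, and the GSK3A window 67.3% and 34, whereas the inner CTNNA1 window had 42.3% and 3, and the inner LEF1 window 47% and 9. The median over all windows was 58.7% G and C.

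For a view across lines, the scrambled-arm values were divided by the median ratio between tables over the 8870 genes whose mean reached 100 in every line. The tables were normalized separately and give no spread between libraries, so the levels between lines carry no test. CTNNA1 had 2537 in Jiyoye, 5.29 in BL-41 and 3.79 in Namalwa on this scale, 480.1-fold and 670.2-fold higher in Jiyoye. LEF1 had 4510.3 in BL-41 and 3429 in Namalwa but 45.4 in Jiyoye, 99.4-fold from highest to lowest. CTNND1 came next with 3088 in Jiyoye, 402 in BL-41 and 172 in Namalwa, a range of 17.9-fold.

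In cells with FOXO3 shRNA, scaled in the same way, CTNND1 had 2339 in Jiyoye, 1384 in BL-41 and 578 in Namalwa, a range of 4.05-fold. The lines thus lay closer together in CTNND1 with FOXO3 shRNA than with scrambled shRNA, which restates its fold changes by line. BCL9L kept a range near 3-fold in both arms, at 3.16-fold with FOXO3 shRNA and 3.13-fold with scrambled shRNA, but BL-41 passed from the lowest place with scrambled shRNA to the middle with FOXO3 shRNA. GSK3B had 2244 in Jiyoye, 1086 in Namalwa and 502 in BL-41 with scrambled shRNA, a range of 4.47-fold. The 6 other genes with scrambled shRNA had ranges from 1.01-fold for GSK3A to 3.13-fold for BCL9L.

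**Figure D3:**
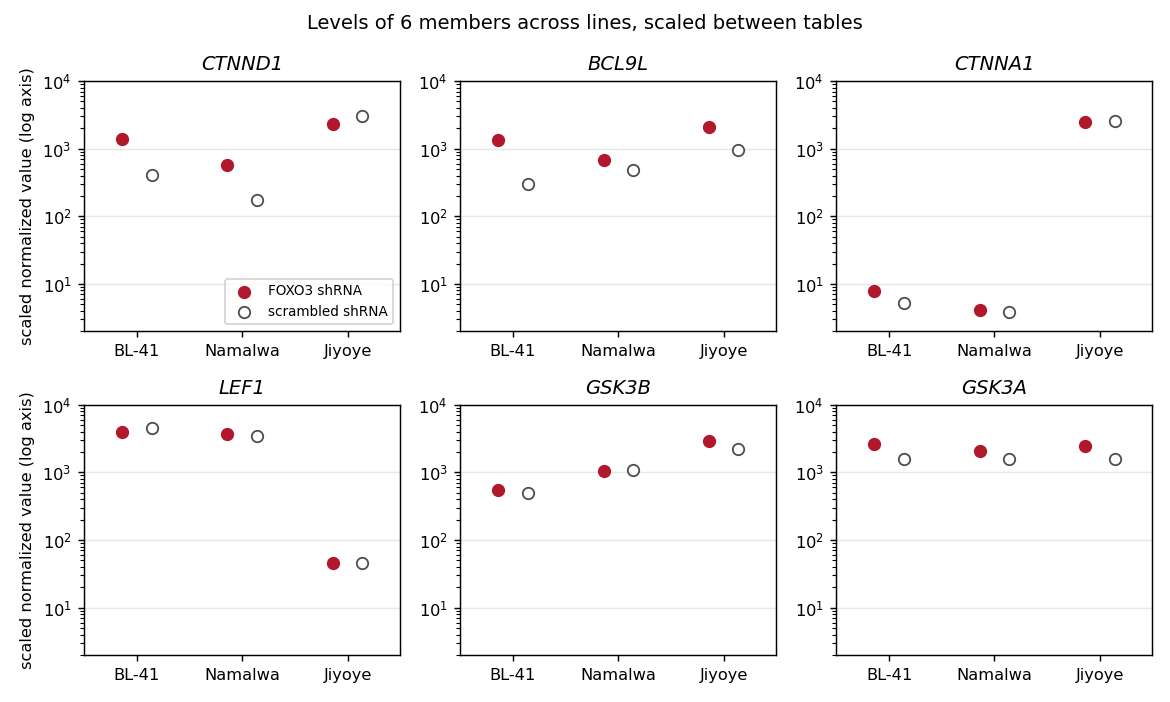
Values of 6 of the genes by line, scaled between tables (log axis), with FOXO3 shRNA (filled, left) and scrambled shRNA (open, right), 1 value per arm. CTNND1 spans 4.05-fold across lines with FOXO3 shRNA and 17.9-fold with scrambled shRNA, CTNNA1 stands apart in Jiyoye, and LEF1 is low there.

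Set per kilobase of the deposited gene length, the order of the members within a line could be read. LEF1 led in BL-41 and Namalwa with a mean of 1249.8 and 1111 normalized reads per kilobase, followed by CTNNB1 (1039 and 875) and GSK3A (956 and 872). In Jiyoye CTNNB1 led with 1335 per kilobase, followed by GSK3A (869) and CTNNA1 (646), and LEF1 came last with 14.5. CTNND1 had 229, 101 and 365 per kilobase with FOXO3 shRNA in BL-41, Namalwa and Jiyoye, against 66.6, 30.1 and 492 with scrambled shRNA. BCL9L had 176, 90.9 and 258 per kilobase with FOXO3 shRNA in BL-41, Namalwa and Jiyoye, against 39.1, 64.9 and 117 with scrambled shRNA. BCL9 had 186, 148 and 185 per kilobase with FOXO3 shRNA, against 172, 142 and 155 with scrambled shRNA, so that BCL9L lay above BCL9 in the FOXO3 shRNA arm of Jiyoye alone. Neighbours in this order cannot be told apart from their spread, since none is given per library.

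The deposited gene length itself differed between lines for some members. LEF1 had a length of 3381 bases in BL-41 and 3366 in Namalwa but 3007 in Jiyoye, a range of 12.4%. CTNNA1 had 3254 in BL-41 against 3700 in Namalwa and Jiyoye, a range of 13.7%. BCL9, BCL9L and GSK3A had the same length in all 3 tables, and the other 5 differed by at most 2.22%. Over 14549 genes in all 3 tables, 48.6% had equal lengths and 6.58% differed by more than 10%. How the authors set the length is not given in the sources used here.

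The relatives of these genes were looked up in the same tables, and those named here were chosen after their values were seen. Among the other TCF factors, TCF7 had a scaled level of 1166 in Jiyoye, 511 in BL-41 and 103 in Namalwa with scrambled shRNA, and TCF7L2 had 38.7, 12.4 and 155. TCF7 thus had its highest level in Jiyoye, where LEF1 was lowest. TCF7 rose in Jiyoye (log2 fold change 0.31 in the authors' deposited table, adjusted p = 0.0391 by DESeq2). JUP, the gene of gamma-catenin, a close relative of beta-catenin, had 4583 in Jiyoye, 2077 in BL-41 and 1118 in Namalwa on the scaled axis and was not called in any line. Of 7 classical cadherins searched, 5 or 6 were listed per line, and their mean was at most 4.22 per kilobase in any line, apart from CDH15, which had 40.4 in Jiyoye and rose there (1.01 in the authors' deposited table, adjusted p = 0.00369 by DESeq2). The p120 relatives ARVCF and PKP4 had 23.3 and 132 per kilobase in BL-41, 15 and 455 in Namalwa, and 13.5 and 186 in Jiyoye.

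Around the members lie 156 further genes in 7 lists of the Wnt pathway and of cadherin junctions. The BL-41 table listed 132 of them, that of Namalwa 131 and that of Jiyoye 138. In BL-41, 26 rose and 13 fell by the authors' DESeq2 test, a called share of 29.5% beside the 28.7% over all genes. In Namalwa 3 rose and 6 fell, 6.87% beside 6.41%, and in Jiyoye 20 rose and 7 fell, 19.6% beside 17.4%. By direction, 19.7% rose and 9.85% fell in BL-41 beside 14.5% and 14.2% of all genes, 2.29% and 4.58% in Namalwa beside 2.6% and 3.81%, and 14.5% and 5.07% in Jiyoye beside 8.69% and 8.7%. Counting both directions, the shares lay near those of all genes in each line. Their median log2 fold change was 0.09, 0.00 and 0.12 in BL-41, Namalwa and Jiyoye, beside 0.02, -0.00 and 0.01 over all genes.

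Of these further genes, 4 were called in every line and in 1 direction each. CSNK1G2, a casein kinase that phosphorylates the Wnt co-receptors, had log2 fold changes of 0.77, 0.33 and 0.97 in BL-41, Namalwa and Jiyoye in the authors' deposited table. LRP5, a Wnt co-receptor, had 0.53, 0.45 and 0.75, and PPARD, a nuclear receptor counted among beta-catenin targets, had 0.70, 0.70 and 0.82, in the authors' deposited table. In the authors' deposited table RYK, a receptor of Wnt ligands related to tyrosine kinases, fell by 0.67, 0.50 and 0.32. Adjusted p of these 4 genes ran from 3.33e-14 to 0.0493 (DESeq2).

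The list of Dishevelled, destruction complex and degradation genes held 10 that rose and 2 that fell of 22 in BL-41, with a median of 0.32. It held 1 and 1 of 22 in Namalwa (median 0.08) and 4 and 1 of 22 in Jiyoye (median 0.08). Its called shares were 54.5%, 9.09% and 22.7% in BL-41, Namalwa and Jiyoye, beside 28.7%, 6.41% and 17.4% of all genes. Of its genes 21 had a mean of 100 or more in BL-41, and among all genes with such a mean 40.7% were called there, against 12 of the list's 21. With such a mean, 2 of 20 were called in Namalwa and 5 of 20 in Jiyoye, beside 9.61% and 25.5% of all such genes. Called examples in BL-41 are CSNK1D (0.72), DVL3 (0.50) and USP7 (0.56) in the authors' deposited table. CSNK1D is a kinase of the casein kinase 1 family, DVL3 carries the signal from Frizzled receptors, and USP7 removes ubiquitin. In Jiyoye, DVL1 (0.65), CUL1 (0.42) and FBXW11 (0.35) rose in the authors' deposited table, of which CUL1 and FBXW11 belong to the ubiquitin ligase of phosphorylated beta-catenin. Of these, DVL1 (0.37) and FBXW11 (0.44) also rose in BL-41, and CSNK1E fell in Namalwa (-0.40) and in BL-41 (-0.65), in the authors' deposited table. These named genes had adjusted p from 1.09e-06 to 0.0348 (DESeq2).

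Of 23 nuclear partners of beta-catenin, 5 rose and 5 fell in BL-41, 0 rose (3 at an unadjusted p under 0.05 by DESeq2) and 2 fell in Namalwa, and 4 rose and 2 fell in Jiyoye. Medians were -0.03, -0.01 and 0.18, and the called shares were 43.5%, 8.7% and 26.1%, beside 28.7%, 6.41% and 17.4% of all genes. Of those with a mean of at least 100, 9 of 18, 2 of 20 and 6 of 18 were called. Over all genes with such a mean the shares were 40.7%, 9.61% and 25.5%. In the authors' deposited table the co-repressor TLE3 rose in BL-41 and Jiyoye by 0.68 and 0.59, and the acetyltransferase CREBBP by 0.62 and 0.41. TBL1XR1 rose by 0.74 while its relative TBL1X fell by 0.55 in BL-41, in the authors' deposited table. In the authors' deposited table MED12, of the Mediator kinase module, fell by 0.49 in Namalwa and by 0.62 in Jiyoye, and the co-repressor TLE2 fell by 0.57 in Namalwa. Adjusted p of these calls ran from 4.03e-07 to 0.0198 (DESeq2).

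Of the widely used target genes of beta-catenin and TCF, 24 were listed in BL-41, where 7 rose and 2 fell (median 0.29). In Namalwa 1 of 22 rose and 0 fell (1 at an unadjusted p under 0.05 by DESeq2, median 0.01), and in Jiyoye 5 of 23 rose and 1 fell (median 0.22). The called shares were 37.5%, 4.55% and 26.1%, beside 28.7%, 6.41% and 17.4% of all genes. Of those with a mean of at least 100, 7 of 12, 1 of 11 and 5 of 12 were called, beside 40.7%, 9.61% and 25.5%. The list holds LEF1, and ID2 and MYC among others are set by many pathways. In BL-41 MYC fell by 0.75 and RNF43, a ligase that removes Frizzled receptors, fell by 0.96, while ID2 rose by 0.62, in the authors' deposited table. AXIN2, a feedback scaffold often used as a reporter of the pathway and singled out here for that, had 209 with FOXO3 shRNA and 140 with scrambled shRNA in BL-41 in the authors' deposited table (log2 fold change 0.58, adjusted p = 0.0368 by DESeq2). AXIN2 was not called in Namalwa (0.08, adjusted p = 0.925) or Jiyoye (0.22, adjusted p = 0.789) in the authors' deposited table by DESeq2. In Jiyoye the ephrin receptor genes EPHB2 (0.88) and EPHB3 (1.51) rose and TNFRSF19 (-1.30) fell in the authors' deposited table, with adjusted p from 6.21e-06 to 5.12e-05 (DESeq2). EPHB2 (1.00) and EPHB3 (1.70) also rose in BL-41 in the authors' deposited table (adjusted p = 0.00123 and 0.00144 by DESeq2).

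Ligands, receptors and inhibitors make up 3 further lists, to be read beside the same shares over all genes. Of the ligand and secretion list, 0 of 18 rose (0 at an unadjusted p under 0.05 by DESeq2) and 2 fell in BL-41, 0 of 19 rose (0 likewise) and 2 fell in Namalwa, and 2 of 20 rose and 0 fell (1 likewise) in Jiyoye, with medians of -0.18, 0.06 and -0.01. The ligand genes WNT10A (-1.49) and WNT10B (-0.97) fell in BL-41, and WNT16 (-0.79) and PORCN (-0.62), whose product adds the lipid to Wnt ligands, fell in Namalwa, in the authors' deposited table. WNT9A (0.89) and WNT6 (0.81) rose in Jiyoye in the authors' deposited table. These 6 had adjusted p from 0.00104 to 0.045 (DESeq2). Of the receptor list, 2 rose and 2 fell of 18 in BL-41, 1 and 1 of 18 in Namalwa and 2 and 1 of 19 in Jiyoye (medians 0.09, -0.04 and 0.12). Besides LRP5 and RYK, the called receptors were FZD6 (0.46) and ROR1 (-0.39) in BL-41 and FZD5 (0.65) in Jiyoye, in the authors' deposited table, where their adjusted p by DESeq2 lay between 0.0136 and 0.0442.

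Of the inhibitor list, 1 rose and 1 fell of 10 in BL-41, 0 rose and 0 fell of 9 in Namalwa (0 and 3 at an unadjusted p under 0.05 by DESeq2), and 1 of 11 rose and 0 fell in Jiyoye (0 likewise), with medians of -0.18, -0.05 and 0.17. The riser in BL-41 was NKD1 (1.18), which restrains Dishevelled, and in Jiyoye KREMEN2 (0.51), a receptor for the DKK inhibitors, in the authors' deposited table (adjusted p = 0.00175 and 0.0171 by DESeq2). Of the cadherin, catenin and p120 partner list, 3 of 25 rose in BL-41 and 0 fell (0 at an unadjusted p under 0.05 by DESeq2), 0 of 26 rose or fell in Namalwa (1 and 4 likewise), and 3 rose and 2 fell of 28 in Jiyoye (medians 0.05, 0.03 and 0.11). Its called shares were 12%, 0% and 17.9% for these lines, beside 28.7%, 6.41% and 17.4% of all genes. The adhesion genes NECTIN1 and NECTIN2 rose in BL-41 (1.03 and 2.05) and in Jiyoye (1.33 and 0.51), and VAV2, an exchange factor that binds p120, rose in BL-41 (0.43), in the authors' deposited table. CTNNA2, the neural alpha-catenin, fell in Jiyoye (-0.69 in the authors' deposited table). These calls had adjusted p from 2.83e-21 to 0.0277 (DESeq2).

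**Figure D4:**
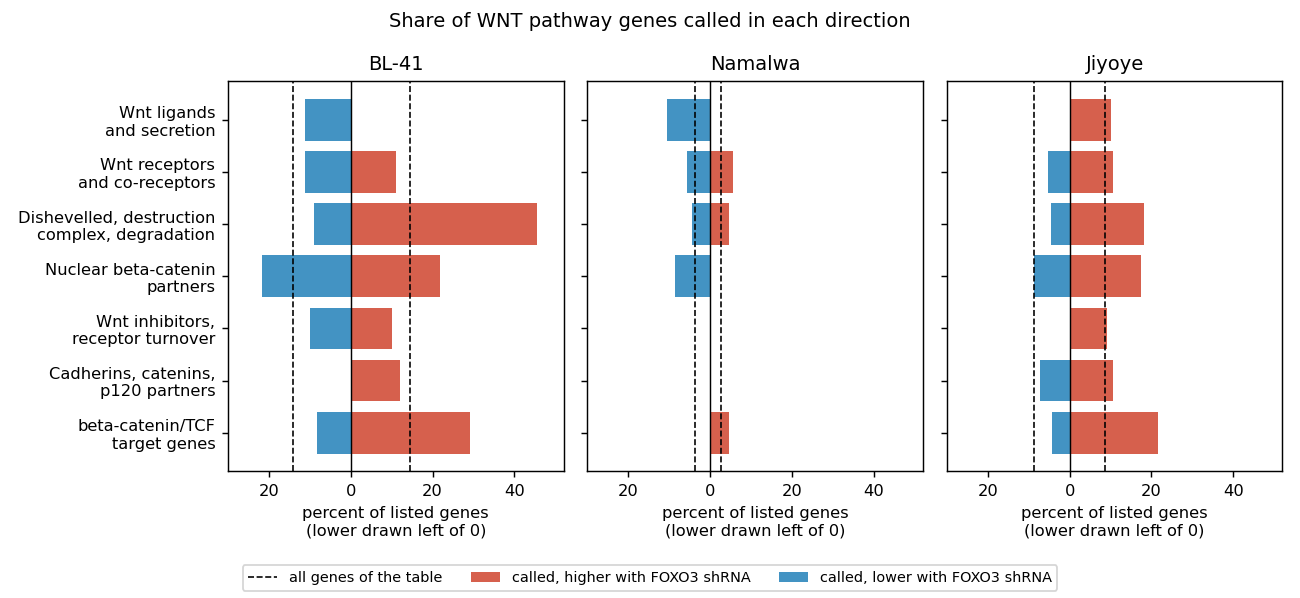
Percent of listed genes in each of the 7 pathway lists that were called at an adjusted p under 0.05, higher (right of 0) or lower (left of 0) with FOXO3 shRNA, per line, with the share over all genes of the table as dashed lines. In BL-41, 10 of 22 genes of the Dishevelled, destruction complex and degradation list were called higher, and in Namalwa few genes of any list were called.

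The genes whose fold changes lay nearest to those of BCL9L over the 3 lines, among the 8870 genes whose mean reached 100 in each, were BICDL1 and PTBP2. Their Euclidean distances on the log2 scale were 0.193 and 0.204. BICDL1 had 2.02, 0.36 and 1.17 and PTBP2 had 1.99, 0.57 and 1.09 in BL-41, Namalwa and Jiyoye in the authors' deposited table. PPP1R16A, JAG2 and ELK3 followed at distances of 0.413 to 0.511. CTNND1 had no such neighbours. Its nearest genes, ATP6V0D1, HIST2H2BE, PRPF3, HSPH1 and ATG2A, lay at distances of 1.47 to 1.54, and in Jiyoye all 5 had a positive fold change in the authors' deposited table, from 0.11 for HSPH1 to 0.89 for HIST2H2BE.

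The position of the members gave a further view that the choice did not use, looked at after the values were seen. CTNND1 lies on chromosome 11 from 57761802 to 57819540 (GRCh38.p14), plus strand. It shares 57379 bases with a read-through gene, TMX2-CTNND1, which was not listed in any line. Reads of the pair could not be told apart here. TMX2, upstream on the same strand, fell by 0.79 in BL-41 and by 0.66 in Jiyoye and had -0.21 in Namalwa, in the authors' deposited table (adjusted p = 2.62e-06, 4.93e-05 and 0.518 by DESeq2). Its fold change was thus negative in BL-41 and Namalwa, where that of CTNND1 was positive. In Jiyoye the fold changes of both genes were negative (-0.43 for CTNND1).

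BCL9L lies on chromosome 11 from 118896136 to 118925926, minus strand, and its last 1652 bases overlap those of CXCR5, a chemokine receptor gene on the plus strand. Strand use in the counting is not given in the sources used here, so reads of the overlap are uncertain. CXCR5 had 109.6 and 211 with FOXO3 shRNA and scrambled shRNA in BL-41, 5.04 and 8.35 in Namalwa, and 544 and 599 in Jiyoye, in the authors' deposited table. It fell in BL-41 (log2 fold change -0.95 in the authors' deposited table, adjusted p = 0.00135 by DESeq2), opposite to BCL9L, and was not called in the other lines.

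GSK3A lies on chromosome 19 from 42230190 to 42242602, minus strand, and genes on its upstream side had positive fold changes too. ERF, a repressor of the ETS family, had log2 fold changes of 1.01, 0.34 and 0.72, and CIC, a repressor of the HMG-box family, had 1.41, 0.42 and 0.58, in BL-41, Namalwa and Jiyoye in the authors' deposited table. Both rose in BL-41 and Jiyoye and CIC also rose in Namalwa, where ERF had an adjusted p of 0.094 (DESeq2). On the other side, ZNF526 was not called in any line, and DEDD2 rose in BL-41 (0.45, adjusted p = 0.0266 by DESeq2) in the authors' deposited table. Farther out on that side POU2F2, a B cell transcription factor, fell in BL-41 (-0.56) and rose in Jiyoye (0.29) in the authors' deposited table (adjusted p = 0.000414 and 0.0417 by DESeq2). Within 50000 bases of the 10 members, 19 other genes whose mean reached 100 were listed in BL-41, of which 5 rose and 8 fell. The same count was 1 and 0 of 19 in Namalwa and 5 and 3 of 20 in Jiyoye, beside 40.7%, 9.61% and 25.5% of all genes with that mean called in these lines.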

How the data were processed

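Messenger RNA of 18 libraries in 6 groups was compared. Per the labels' protocols libraries were made with oligo-dT enrichment, and per the series' design text reads were filtered with SOAPnuke. The submitters' processing notes list Bowtie2, RSEM and hg38, and the authors' use of DESeq2. The authors deposited 1 normalized signal value per arm for each gene, whose ratio was checked to equal the deposited log2 fold change (largest gap 1.39e-14), and the gene length, an other value in bases. The deposited log2 fold changes and p-values were made by the authors with DESeq2, which moderates low genes towards 0. No count per library was at hand, so a call rests on the authors' deposited adjusted p under 0.05, by the Benjamini-Hochberg method over all genes of the line.

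From these, the SE was recovered by dividing each fold change by the normal quantile that its p stands for. Lines were compared with a two-sided z test of the gap between their fold changes, adjusted by the Benjamini-Hochberg method over all genes in both tables, within each of 3 pairs. The z test was first run on simulated fold changes drawn with the recovered SE, which cannot show whether that SE is right. Levels between lines were scaled by the median ratio. Named genes are the 10 members, FOXO3, at most 4 called genes with the smallest adjusted p per list and line, called markers, and the 5 genes nearest to CTNND1 and BCL9L in fold change. Other genes, such as relatives, neighbours on the chromosome, EPCAM, KRT18 and AXIN2, and calls named in a further line, were chosen after their values were seen. The members and lists were chosen with earlier results of these data known. Scripts ran under Python 3.11.15 with scipy 1.17.1, numpy 2.4.6, pandas 2.3.3 and, for figures, matplotlib 3.10.9. GENCODE 44 gave strands. Intervals cover the spread between libraries as the authors' test modelled it. Alternatives tried were other thresholds, adjustments, centring, scalings and a filter on low values.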

Additional observations from a re-analysis of the deposited data

Results flagged for a closer look

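The fold change of CTNNB1 differed between lines by a test of the difference itself. BL-41 minus Namalwa was 0.49 on the log2 scale (adjusted p = 0.034 by the z test), with log2 fold changes in the authors' deposited table of 0.34 in BL-41 and -0.15 in Namalwa. Of the 8 genes tested in 3 pairs of lines, no other difference passed. Between BL-41 and Namalwa 7.01% of all genes passed, and by size the CTNNB1 difference ranked 3400 of 14789. Myeloid markers differ between the BL-41 arms as given above, and their part in this difference was not tested.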

How the results depend on the processing

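No paired analysis was possible because the deposited tables give 1 value per arm, and for the same reason no replicate could be left out. Of the 8 members not picked for their fold change, Bonferroni adjustment left 1 called in BL-41 and 1 in Jiyoye, against 3 each, and 0 in Namalwa, against 1. A threshold of 0.01 also left 0 in Namalwa. That threshold left 7 further pathway genes falling in BL-41 against 13, 2 in Namalwa against 6 and 3 in Jiyoye against 7. Fewer calls follow from these stricter rules by construction. The other 35 summary results kept their call or stayed within 1.5 times. Thresholds and adjustments leave a single-gene fold change as it is, so its sign was not put to a test by them. With the FOXO3 shRNA arm in place of the scrambled arm the range of each member across lines changed. It was 4.05-fold against 17.9-fold for CTNND1, 1.74 against 1.57 for CTNNB1 and 1.44 against 1.91 for AXIN1. For GSK3A it was 1.27 against 1.01, and for GSK3B 5.16 against 4.47. LEF1 had 84.9 against 99.4, CTNNA1 604.4 against 670.2 and BCL9 1.39 against 1.27. APC had 1.63 against 1.55 and BCL9L 3.16 against 3.13. Apart from the scaling, these changes restate how the fold changes of these genes differ by line, and are no separate result. Centring moved fold changes by at most 0.00437 in any line. Moderation limits what low genes can show, CTNNA1 in BL-41 and Namalwa and LEF1 in Jiyoye above all.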
